A study of Mus musculus with 6 samples.

Results

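The 10 genes followed here are genes of the ocular lens, measured in RNA-seq of whole mouse corneas. They are the crystallin genes Cryaa, Cryba1, Cryba4, Crybb2, Crybb3, Crygb and Crygc, and the fibre cell genes Mip, Lim2 and Bfsp1. They were taken by symbol from a list chosen with earlier results of these data known. All 10 of 10 were found, each on a locus of its own, among 23889 loci that carry a gene symbol and 28539 loci in all. The corneas came from female C57BL/6J mice of 6 to 8 weeks and formed 3 groups with 2 samples each. The first group was untreated (day 0), and the others were taken 5 days and 15 days after an alkali burn, the later one being called a stage of regression in the labels. No transgene or mutant allele is named for any group. Whether the samples within a group are from different animals is not stated.

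The lens is a ball of elongated fibre cells under a thin epithelium, and it lies behind the cornea and iris. Fibre cells fill their cytoplasm with crystallins, the proteins that give the lens its refractive power. The alpha crystallins are small heat shock proteins that keep other proteins soluble, and the beta and gamma crystallins are structural proteins built from a shared fold. The gamma crystallins of the cluster from Cryga to Crygf are made mostly by fibre cells formed early in life, whereas Crygs is made mainly after birth. Some alpha and beta crystallins are also known outside the lens, in the retina among other tissues.

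Levels are FPKM (fragment counts divided by transcript length and by library size), which the authors gave once per group, pooled over its 2 samples. The range in brackets after a level is the authors' interval for that pooled value. With 0 columns for single samples, no spread between replicates can be shown, no test could be run and no p-value is given. A locus is called apart between 2 groups when its status is OK in both, the higher FPKM is at least 1, the log2 ratio of (FPKM + 1) is at least 1 in size and the 2 intervals do not overlap. Log2 ratios below are on this scale, which understates the difference of low genes, while folds and percentages are of plain FPKM. Read totals are unknown. The authors' intervals were wide for the lens genes, with median half-widths of 74.3%, 114% and 78.4% of the level on days 0, 5 and 15.

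The samples carried corneal transcripts. Kera, a proteoglycan core of the corneal stroma, stood at 516, 11.2 and 16.2 FPKM at days 0, 5 and 15, and Krt5, a keratin of the basal epithelium, at 1199, 589.7 and 796. Lum, another stromal proteoglycan, stood at 237, 243 and 286, Aldh3a1, an enzyme abundant in corneal epithelium, at 9150, 303 and 866, and Slc4a11, a transporter of the corneal endothelium, at 55.9, 3.10 and 1.04. Krt12, the main corneal keratin, was listed at 0 at day 0 with a status of too many fragments, and its day 0 level cannot be read. Markers that reached 1 FPKM were compared at day 5 against day 0. Lower and apart were 5 of 9 for corneal epithelium, 6 of 9 for keratocytes and 2 of 7 for corneal endothelium. Another 1 of the endothelial genes was apart in the other direction. Among all 15576 loci that reached 1 FPKM in this comparison, the corresponding shares were 2.50% for lower and 3.42% for higher.

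The start sites of 5 crystallin genes are shown first because the alpha, beta and gamma crystallins among the 10 genes are compared by class below. The sequences are the 120 bases before the annotated start of transcription, from RefSeq on GRCm38.p6. They cover chr17:31677811-31677930, plus strand for Cryaa; chr11:77725294-77725413, minus strand for Cryba1; chr5:113081585-113081704, minus strand for Crybb3; chr1:65082291-65082410, minus strand for Crygb; and chr1:65073533-65073652, minus strand for Crygc. Capitals mark matches on either strand to 5 runs of letters. TATAAA and TATATA are forms of the TATA box, TGCTGA is the core of the site of Maf transcription factors, and CTTTGT is a core of the site of Sox factors. GGCCCCTTT is a run that Crygb and Crygc were seen to share, and it was picked for that reason.
Cryaa: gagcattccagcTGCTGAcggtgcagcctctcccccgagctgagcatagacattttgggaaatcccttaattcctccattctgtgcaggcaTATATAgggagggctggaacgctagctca
Cryba1: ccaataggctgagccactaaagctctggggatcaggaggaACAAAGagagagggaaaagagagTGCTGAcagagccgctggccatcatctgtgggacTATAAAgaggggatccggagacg
Crybb3: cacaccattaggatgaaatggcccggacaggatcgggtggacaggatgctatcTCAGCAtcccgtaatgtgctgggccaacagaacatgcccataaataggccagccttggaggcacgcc
Crygb: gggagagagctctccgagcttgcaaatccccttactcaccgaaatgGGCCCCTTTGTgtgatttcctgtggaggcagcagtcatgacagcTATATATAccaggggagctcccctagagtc
Crygc: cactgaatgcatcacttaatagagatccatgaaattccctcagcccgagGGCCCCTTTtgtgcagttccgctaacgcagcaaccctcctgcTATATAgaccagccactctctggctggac
In Crygb the CTTTGT match overlaps the GGCCCCTTT run, and 2 TATATA matches overlap each other.

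All 10 members were matched to a promoter window of 250 bases before to 50 bases after the start, and 32851 such windows were searched in all. TGCTGA was in the windows of 8 of the 10, against 19.5% of all windows. TATATA was in 3 (Cryaa, Crygb and Crygc) against 5.67% of all windows, TATAAA in 2 (Cryba1 and Mip) against 13.6%, and CTTTGT in 4 against 18.7%. In Cryaa and Crygc the TATATA match began at position -29, counted from -1 at the last base before the start. The TATAAA match began at -23 in Cryba1 and at -3 in Mip, where it runs across the start. The GGCCCCTTT run was in Crygb, Crygc and Lim2, against 0.557% of all windows, and also in 3 of the 8 other crystallin genes that could be matched, Cryga, Cryge and Crygf. These matches are descriptions of letters, and no binding was measured.

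**Figure D1:**
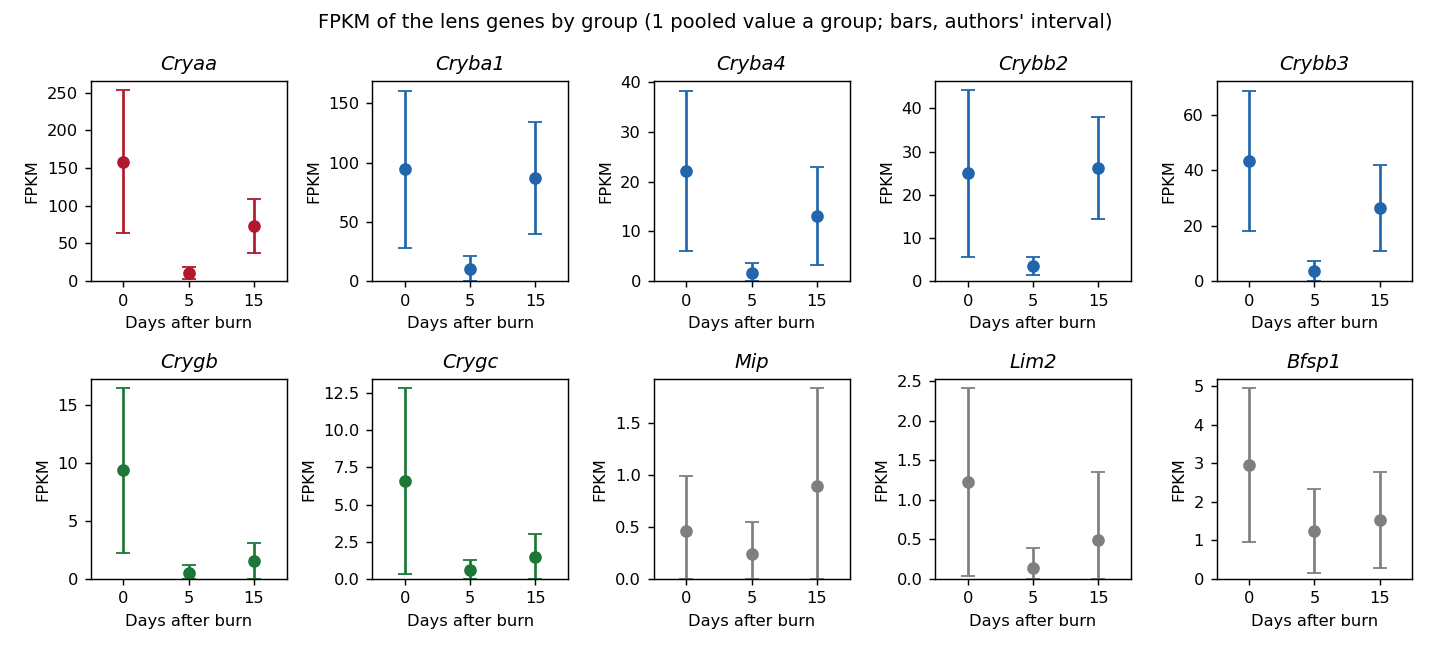
FPKM of each of the 10 lens genes (y axis, a separate linear scale from 0 in each panel) at 0, 5 and 15 days after the burn (x axis), with the authors' interval as bars and colours for alpha (red), beta (blue) and gamma (green) crystallins and for fibre genes (grey). Each of the 10 points at day 5 is below its day 0 point, and at day 15 Cryba1 and Crybb2 stand at 92.0% and 105% of day 0, Crygb and Crygc at 16.1% and 22.5%.

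Each of the 10 lens genes was lower in value at day 5 than at day 0, and 6 were lower and apart. The median log2 ratio was -2.65, and over all 15576 loci that reached an FPKM of 1 in at least 1 of the groups it was -0.09. Lower and apart were 2.50% of those loci. Higher and apart were 3.42% of them and 0 of the lens genes. The summed FPKM of the 10 genes was 32.3 at day 5 against 363.8 at day 0, or 8.88%. In bulk tissue, fewer cells of a type and less RNA per cell cannot be told apart. Of the 10, 9 reached an FPKM of 1 in the higher group, Mip being the exception.

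Cryaa, the alpha crystallin that is largely restricted to the lens (mm10 chromosome 17, 31677931 to 31681730, 4 exons), had the highest level of the 10 genes at day 0. It stood at 158 FPKM (63.3 to 253.1) at day 0, 10.6 (2.26 to 18.9) at day 5 and 72.9 (36.8 to 109) at day 15. The day 5 interval lies below both others, and the intervals of days 0 and 15 overlap. Cryaa was 15.0-fold lower at day 5 than at day 0, with a log2 ratio of -3.78, the lowest of the 10. Its exons overlap a gene model on the opposite strand, and no strandedness is given in the labels.

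The 4 beta crystallins were all lower and apart at day 5. Cryba1, an acidic beta crystallin (chromosome 11, 77718732 to 77725293, 6 exons), was the most abundant of them. It stood at 94.4 FPKM (28.2 to 161) at day 0, 10.2 (0 to 21.0) at day 5 and 86.9 (39.6 to 134) at day 15. The level at day 15 was 92.0% of that at day 0. Crybb3, a basic beta crystallin (chromosome 5, 113075837 to 113081584, 6 exons), stood at 43.5 (18.2 to 68.9), 3.77 (0.156 to 7.39) and 26.5 (10.8 to 42.1) at days 0, 5 and 15. Both genes were low at day 5 alone. Crybb3 was 11.5-fold lower at day 5 than at day 0, and Cryba1 9.24-fold lower.

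Crybb2, a basic beta crystallin abundant in the adult lens (chromosome 5, 113058257 to 113069683, 7 exons), stood at 24.9 FPKM (5.67 to 44.2) at day 0, 3.49 (1.45 to 5.52) at day 5 and 26.2 (14.4 to 38.1) at day 15. Of the 6 genes lower and apart at day 5 it was nearest to the limit. Its day 5 upper bound of 5.52 lay just under the day 0 lower bound of 5.67, and when the groups were rescaled to an equal median ratio or upper quartile the intervals overlapped, leaving 5 members lower and apart under either scaling. Cryba4, an acidic beta crystallin that is a neighbour of Crybb1 (chromosome 5, 112246533 to 112252502, 6 exons), stood at 22.1 (6.01 to 38.3), 1.54 (0 to 3.58) and 13.1 (3.29 to 22.9). It was 14.4-fold lower at day 5 than at day 0.

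The gamma crystallins Crygb and Crygc, neighbours on chromosome 1, were at much lower levels than Cryaa in all 3 groups. Crygb (65080222 to 65082290, 3 exons) stood at 9.37 FPKM (2.27 to 16.5) at day 0, 0.523 (0 to 1.16) at day 5 and 1.51 (0 to 3.07) at day 15. It was 17.9-fold lower at day 5 than at day 0, the largest fold of the 10 genes, against a day 5 level whose interval reaches 0. Crygc (65071525 to 65073532, 3 exons) stood at 6.57 (0.310 to 12.8), 0.564 (0 to 1.26) and 1.48 (0 to 3.0). Crygb was lower and apart at day 5, and Crygc was not, its day 0 interval reaching down to 0.310. The coding sequences of Crygb and Crygc are 83.8% identical over 525 aligned bases. Of the 50-base words of the Crygb transcript 29.4% also occur in transcripts of other genes, and of those of Crygc 24.0%. For the other 8 members that share is 0%, so that the assignment of reads is less certain for the gamma pair.

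The 3 genes of the fibre cell membrane and skeleton were near the limit of detection. Bfsp1, a subunit of the beaded filaments of fibre cells (chromosome 2, 143826528 to 143863173, 8 exons), stood at 2.95 FPKM (0.951 to 4.96) at day 0, 1.24 (0.158 to 2.33) at day 5 and 1.52 (0.275 to 2.77) at day 15. Lim2, a membrane protein of fibre cell junctions (chromosome 7, 43430101 to 43435991, 5 exons), stood at 1.22 (0.0375 to 2.41), 0.134 (0 to 0.391) and 0.486 (0 to 1.35). Mip, the water channel aquaporin 0 of fibre cells (chromosome 10, 128225838 to 128231811, 4 exons), stood at 0.464 (0 to 0.989), 0.235 (0 to 0.544) and 0.891 (0 to 1.84). For each of these 3 genes the intervals of all groups overlap, so that no difference was detectable. Mip is the most abundant membrane protein of the lens in textbook accounts, and its exons overlap a gene model on the opposite strand.

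**Figure D2:**
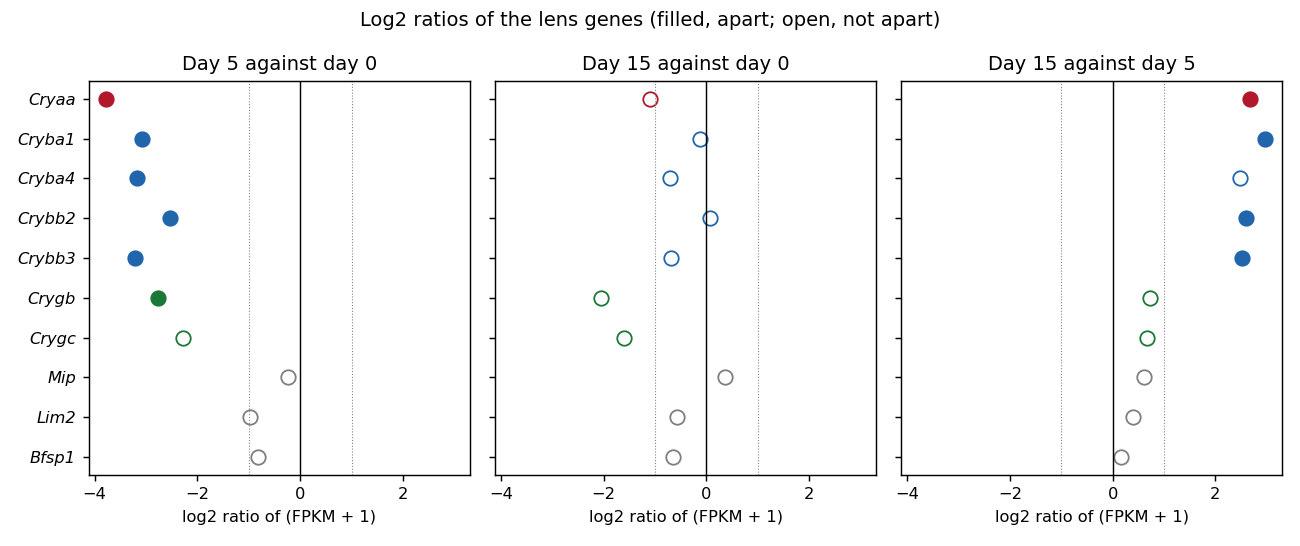
Log2 ratio of (FPKM + 1) for each lens gene (x axis) in the 3 comparisons (panels), filled where the groups are apart and open where they are not, with dotted lines at -1 and 1. At day 5 against day 0 all points lie left of 0, from -3.78 for Cryaa to -0.24 for Mip, and at day 15 against day 5 all lie right of 0.

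At day 15 the lens genes were higher than at day 5 in all 10 cases, and 4 were higher and apart: Cryaa, Cryba1, Crybb2 and Crybb3. The background was small in this comparison, with 0.395% of 14683 loci higher and apart, while 0.388% were lower and apart. The median log2 ratio of the 10 genes was 1.60, and that of all the loci was -0.01. Cryba1 had 86.9 FPKM at day 15 against 10.2 at day 5, an 8.50-fold higher level. Cryaa was 6.89-fold, Crybb2 7.52-fold and Crybb3 7.01-fold higher. Cryba4 had a fold as large, at 8.51, but its day 15 lower bound of 3.29 lay under its day 5 upper bound of 3.58. Crygb and Crygc were 2.89-fold and 2.62-fold higher, with intervals that overlap. This comparison and the one of day 5 with day 0 share the day 5 samples.

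At day 15 none of the 10 genes was apart from day 0, where 4.72% of 15186 loci were apart in either direction. Lower and apart were 1.81% of the 15186. The median log2 ratio of the 10 genes was -0.67, against -0.10 over those loci, and 8 of the 10 were lower in value at day 15. Crybb2 was higher in value, at 105% of day 0, as was Mip, at 192% from levels under 1 FPKM. When the intervals were not used, 3 members passed the size limit as lower, Cryaa, Crygb and Crygc, and so did 9.43% of the 15186 loci. The overlap of intervals this wide does not show that the lens genes were back at their day 0 level.

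**Figure D3:**
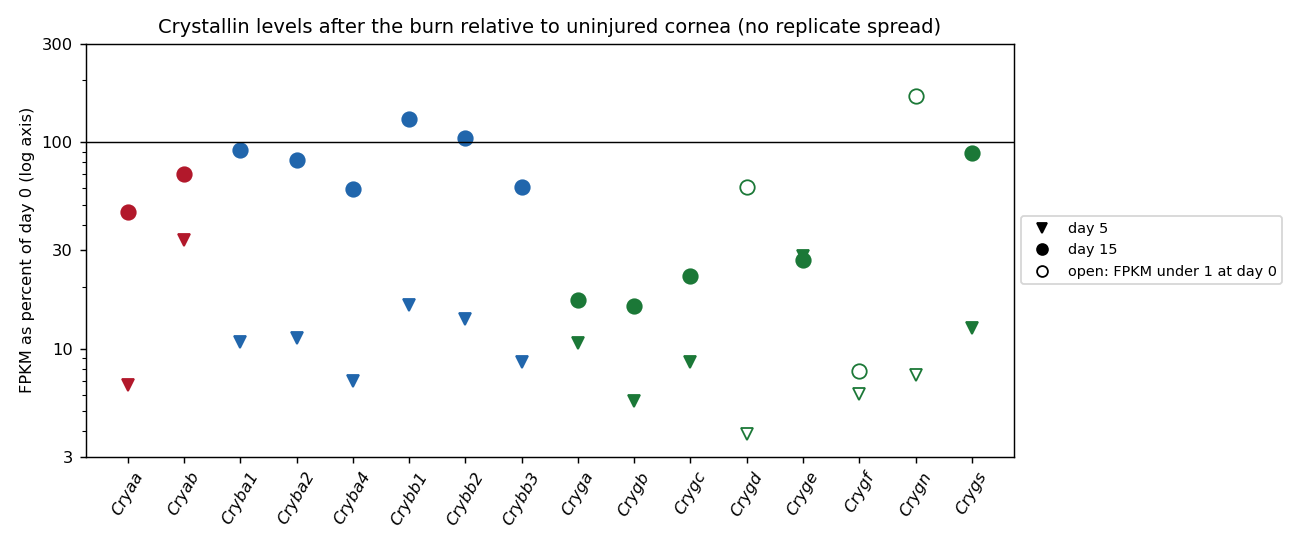
FPKM at day 5 (triangles) and day 15 (circles) as a percentage of day 0 (log axis) for the 16 genes of the alpha (red), beta (blue) and gamma (green) crystallin families, with open symbols where the day 0 level was under 1 FPKM. At day 15 the alpha crystallins lie at 46.1% and 69.9%, the beta crystallins between 59.3% and 130.2%, and the gamma crystallins between 7.78% (Crygf) and 168% (Crygn), with Crygb and Crygc at 16.1% and 22.5% and Crygs at 88.9%.

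Among the 10 genes, the crystallin classes stood, in value, at different fractions of their day 0 level at day 15, while over all 16 crystallin genes the ranges of the classes overlap. The 4 beta crystallins together had 153 FPKM at day 15 against 185 at day 0, or 82.5%, and singly 59.3% (Cryba4), 60.8% (Crybb3), 92.0% (Cryba1) and 105% (Crybb2). Cryaa stood at 46.1% of its day 0 level. The gamma pair together had 2.99 FPKM at day 15 against 15.9 at day 0, or 18.8%. Relative to Cryaa in the same group, Crygb stood at 0.0592, 0.0494 and 0.0207 at days 0, 5 and 15, and Cryba1 at 0.597, 0.966 and 1.19. No test of the difference between the classes was possible with 1 value a group, and the day 15 upper bound of Crygb, 3.07, lies above its day 0 lower bound of 2.27.

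Crystallin genes outside the list were read beside them. Of 9 others, 9 were lower in value at day 5 than at day 0. Of the 6 that reached 1 FPKM, 3 (Cryab, Cryba2 and Crygs) were lower and apart, against 2.50% of all such loci. The median log2 ratio of the 9 was -1.25. Cryba2, an acidic beta crystallin, stood at 20.6, 2.33 and 16.9 FPKM on days 0, 5 and 15, and was higher and apart at day 15 against day 5. Crygs stood at 4.27, 0.538 and 3.80, which at day 15 is 88.9% of day 0. Crybb1, a basic beta crystallin, stood at 2.50, 0.405 and 3.25, with intervals that overlap. Cryab, the alpha crystallin made in many tissues, muscle among them, stood at 69.8, 23.6 and 48.8. Its exons overlap those of Hspb2 on the opposite strand. The gammas of the chromosome 1 cluster were lower and near the limit of detection. Cryga was at 17.3% of day 0 at day 15 and Cryge at 26.9%, from day 0 levels of 1.85 and 1.56 FPKM, and their intervals reach 0 in every group. Crygf was at 7.78% and Crygd at 61.1%, from day 0 levels of 0.869 and 0.498, both under 1 FPKM. Crygn, a gamma crystallin on chromosome 5, stood at 0.591, 0.0443 and 0.989 FPKM, or 168% of day 0 at day 15, so that Crygd, Crygn and Crygs were nearer to day 0 in value than Crygb and Crygc. Of the 50-base words of the Cryga transcript 52.3% occur in other transcripts.

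**Figure D4:**
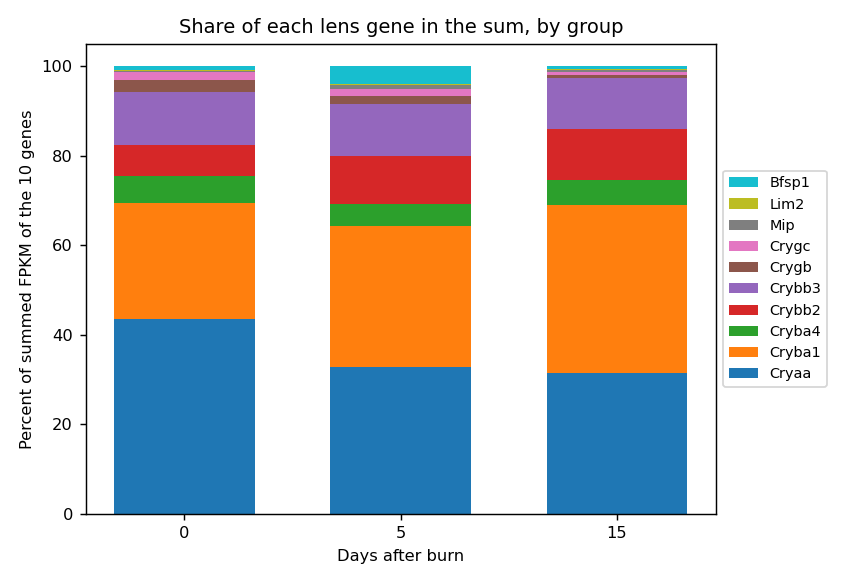
Share of each gene in the summed FPKM of the 10 lens genes (y axis, percent) at 0, 5 and 15 days after the burn (x axis). Cryaa takes 43.5%, 32.8% and 31.5% in time order, while Cryba1 takes 26.0%, 31.6% and 37.5%.

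The make-up of the summed FPKM of the 10 genes was compared within each group, where the scale between groups plays no part. The sum was 363.8, 32.3 and 231.5 FPKM on days 0, 5 and 15. The 9 other crystallin genes, left out of it, summed to 102.6, 27.6 and 74.9. Among these 9, Cryab stood at 23.6 FPKM at day 5, above each of the 10 genes. The shares and their course therefore depend on which genes are in the sum. On days 0, 5 and 15, beta crystallins took 50.9%, 58.9% and 66.0% of the summed FPKM. Cryaa took 43.5%, 32.8% and 31.5%, and the gamma pair 4.38%, 3.36% and 1.29%. Crybb3 kept nearly the same share, at 12.0%, 11.7% and 11.4%. The 3 fibre genes took 1.28%, 4.99% and 1.25%, the day 5 share being mostly Bfsp1 at 3.85%. These shares carry the width of the intervals above and have no error of their own.

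Other genes of lens fibres were mostly too low to read. Of 10 such genes, 5 reached an FPKM of 1 when days 0 and 5 were compared. For days 0 and 15 there were 5, and for days 5 and 15 only 3. Of these, 0 were apart in any comparison. Over all loci that reached 1 FPKM, the shares apart in either direction were 5.92%, 4.72% and 0.783%, in the same order. With so few genes, 0 calls cannot be told from these shares. Grifin, a galectin-related protein of the lens, stood at 4.36 FPKM (0 to 10.9) at day 0, 0.176 (0 to 0.508) at day 5 and 4.37 (0 to 9.74) at day 15. Bfsp2, the partner of Bfsp1 in the beaded filament, stood at 1.20 (0 to 3.48), 0.0638 (0 to 0.237) and 0.908 (0 to 1.94). Both were low at day 5 and near day 0 at day 15, with intervals that overlap. Lgsn, a lens protein related to glutamine synthetases, stood at 2.44 (0 to 4.94), 0.150 (0 to 0.396) and 0.0864 (0 to 0.253), and so was low at both times. Gja3, a connexin of fibre cells, stood at 0.0526, 0.0203 and 0.0589. Tdrd7, an RNA granule protein of lens fibres and other cells, stood at 11.2, 5.61 and 9.42. Lenep lies on a merged locus with Flad1 and has no readable level of its own.

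Transcription factors that act in lens development had mixed values. Of 10, 6 were higher in value at day 5 than at day 0 and 3 were lower. Only 2 of the 10, Maf and Pax6, reached an FPKM of 1 in either of these groups, and 0 of these 2 were apart. The others were too low to be called. Over all loci that reached 1 FPKM, 5.92% were apart in either direction. Maf, which activates crystallin genes, stood at 4.74 FPKM (0.982 to 8.50) at day 0, 8.43 (3.34 to 13.5) at day 5 and 13.7 (6.10 to 21.4) at day 15. Prox1, a factor of fibre cell differentiation that lymphatic endothelium also uses, stood at 0.629, 0.880 and 1.69. Both were highest at day 15, and neither was apart. Pax6, a factor of lens and corneal epithelium, stood at 128 (119.5 to 136.4), 63.6 (40.7 to 86.5) and 108 FPKM (72.0 to 143). Its day 5 interval lies below that of day 0, and its plain FPKM was 2.01-fold lower. The log2 ratio of -0.997 was just short of the size limit, which alone kept Pax6 from being called apart. The Pax6 locus is 15.8 times as long as the RefSeq gene, so that the level is uncertain. Sox2 was listed at 0 (0 to 0), then 0.304, then 1.17 FPKM (0.308 to 2.03) in time order. Of the 4 factors that reached 1 FPKM at day 15 against day 0, Sox2 alone was apart, as higher. Over all such loci 4.72% were apart in either direction. The day 0 interval of Sox2 has no width, so that any day 15 lower bound above 0 would clear it. The Sox2 locus is 47.7 times as long as the RefSeq gene, so that this level too is uncertain. Hsf4, a heat shock factor of lens fibres, stayed under 0.3 FPKM, and Foxe3, a defining gene of lens epithelium, was listed at 0 in all groups.

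**Figure D5:**
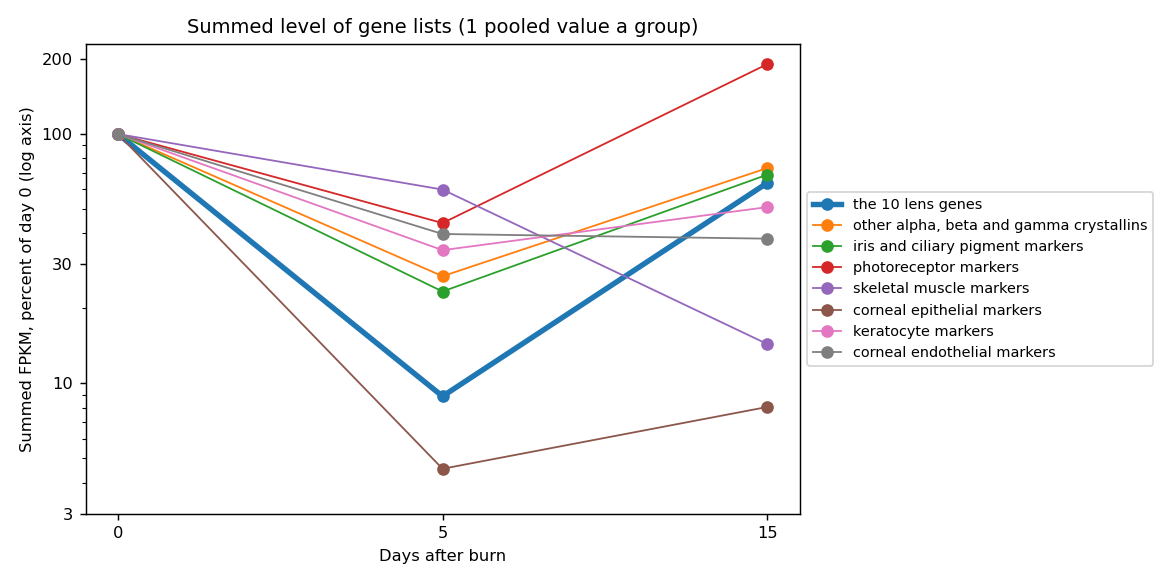
Summed FPKM of the 10 lens genes and of 7 other gene lists as a percentage of day 0 (log axis) at 0, 5 and 15 days after the burn (x axis), with 1 pooled value a group, no error, and Krt12 left out of the corneal epithelial sum. The lens genes stand at 8.88% at day 5 and 63.6% at day 15, the iris and ciliary pigment markers at 23.4% and 68.7%, and the skeletal muscle markers at 59.9% and 14.4%.

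Markers of other tissues of the eye moved in the same samples. Of 10 markers of iris and ciliary pigment cells, 10 were lower in value at day 5 than at day 0 and 2 were lower and apart. Over all loci that reached 1 FPKM, 2.50% were lower and apart, and the median log2 ratio was -0.09. That of the 10 pigment markers was -1.65. Their summed level was 393, 91.9 and 270.2 FPKM in time order, and none of the genes of this list or of the next 2 was listed at 0 in any group. Of 13 photoreceptor markers, 10 reached 1 FPKM in this comparison and 1 of these was lower and apart. At day 5, 12 of the 13 markers were lower in value than at day 0. Their summed level was 112, 49.1 and 213, so that at day 15 it stood at 191% of day 0 where the lens genes stood at 63.6%. The 14 skeletal muscle markers had another course, with sums of 788, 472 and 113, and 14 of 14 lower in value at day 15 than at day 5. Of the 12 that reached 1 FPKM in that comparison, 7 were lower and apart, against 0.388% of all such loci. The part of neighbouring tissue in the lens gene values was not tested.

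The loci of most similar pattern were taken as those whose 2 log2 ratios to day 0 lay nearest to the medians of the lens genes, -2.65 at day 5 and -0.67 at day 15, over 3 groups and among 6520 loci with an FPKM of at least 10 in the highest group. The 8 nearest were Asprv1, Prss32, Dsg1b, Mlana, Gng13, Chmp4c, Tyrp1 and Slc24a5. Mlana, Tyrp1 and Slc24a5 are genes of pigment cells, at distances of 0.351, 0.522 and 0.533, with Tyrp1 and Slc24a5 the farthest of the 8. The share of pigment cell genes among the 6520 loci was not counted. Mlana stood at 159, 30.8 and 89.5 FPKM on days 0, 5 and 15, and Tyrp1, an enzyme of melanin synthesis, at 44.9, 9.49 and 27.6. Asprv1 and Dsg1b are genes of stratified epithelia, a skin protease and a desmosomal cadherin. Asprv1, the nearest at a distance of 0.165 on the log2 scale, stood at 6795, 1161 and 3894. Likeness over 3 groups rests on 2 numbers per locus, and many unrelated genes can share it.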

How the data were processed

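Poly(A)-selected libraries of whole cornea RNA were sequenced, per the labels' protocols. The build was mm10 and the tools were Bowtie2 2.2.6, TopHat2 2.1.0, Cuffdiff and Cufflinks 2.2.1, per the submitters' processing notes, which give no parameters here. The authors deposited 1 gene table in FPKM, with a pooled level, an interval and a status for each of the 3 groups and 0 columns for single samples. Planned fits by sample therefore could not be made, and the rule for pooled columns, written beside them, was used.

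The members and the 9 other gene lists were chosen with earlier results of these data known. All 10 members are named. Of the other lists, members with FPKM of at least 1 in some group could be named, up to 4 with the largest log2 ratios and any called apart; Gja3, Lenep, Hsf4, Foxe3, Cryga, Cryge, Crygd, Crygf and Crygn were named outside this, after their values were seen. The script for the calls was tested on simulated data. Locus starts were converted to 1-based positions. Exons, transcripts and strands are from GENCODE (GRCm38). Alternatives varied the pseudocount of 1, the minimum, the fold, the intervals, the scaling and merged loci. Python 3.11.15, numpy 2.4.6, pandas 2.3.3 and matplotlib 3.10.9 were used.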

Additional observations from a re-analysis of the deposited data

How the results depend on the processing

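The 6 lens genes lower and apart at day 5 and the 4 that were higher and apart at day 15 than at day 5 kept their direction under the alternatives run. Only the rescalings could have changed a direction, and their shifts were small beside these ratios, so that kept direction is no support. Crybb2 lost its day 5 call under both rescalings, which shifted day 5 against day 0 by 0.10 on the log2 scale. Of 270 single-gene values under alternatives, 263 stayed on the same side of the call, 2 lost it and 5 gained it, all 5 where intervals were not used. With smaller pseudocounts of 0.1 and 0.01, the median log2 ratio of the lens genes was -3.26 and -3.36 at day 5 against day 0, and with 0.01 it was 2.33 at day 15 against day 5. Without the intervals, 3 lens genes were lower at day 15 against day 0, as were 9.43% of loci, and in both directions together 3409, 2702 and 876 loci were called in the comparisons of day 5 with 0, day 15 with 0 and day 15 with 5. With a log2 ratio of at least 2 they were 507, 379 and 53, against 922, 717 and 115 in the report. Leaving the gamma crystallins out of the sum gave Cryaa a share of 45.5%, 33.9% and 31.9% at days 0, 5 and 15. No paired analysis was possible because the columns carry no replicate. For the same reason, no replicate could be left out. Depth is unknown, and levels under 1 FPKM with an interval reaching 0 limit Mip, Lim2 and the gamma crystallins.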
